A study of Mus musculus with 4 samples.

Results

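Chemokines are small secreted proteins that guide leukocytes, and their receptors are G protein-coupled receptors on the cells that respond. They were read here in mouse leukemic cells that carry the fusion oncogene MLL-AF9 and were isolated out of the marrow of C57BL/6 recipients. Chemokines of the CC, CXC, CX3C and XC classes, their receptors and the atypical chemokine receptors were selected by name. The members are the probe sets whose only gene symbol in the platform's annotation follows the systematic names of these genes. There were 87 such probe sets for 55 genes among 45101 probe sets on the array: 33 chemokines, 17 receptors and 5 atypical receptors, with Ccrl2 counted among the last. Another 4 probe sets that carry a member's name together with the names of near copies (for Ccl19, Ccl21 and Ccl27) are not members. Nor are the CXC chemokine genes Pf4 and Ppbp, whose symbols are not systematic names.

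There were 2 samples of leukemic cells labelled Ezh2 KO and 2 of wild-type (WT) leukemic cells, each on its own 1-colour array, from RNA equivalent to 10000 cells. Ezh2 is the enzyme of the Polycomb complex PRC2, which places a repressive methyl mark on histone H3. All groups share the MLL-AF9 transformation and the C57BL/6 host. The labels conflict on the knockout samples, since a further entry describes their recipients as repopulated with marrow lacking Ink4a and Arf, whereas the WT recipients are entered with wild-type marrow. The construct that carried MLL-AF9, the age of the mice and the number of leukemias behind each group are not given in the sources used here. No label states whether same-group samples were taken from different mice, so each p-value reflects only how far these arrays scatter, possibly for technical reasons, and the number of arrays limits every value.

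As background, the chemokine classes are named after the spacing of their first cysteines, and many of their genes lie in clusters. In myeloid cells CC chemokines such as Ccl3, Ccl4, Ccl6 and Ccl9 are made by the cells themselves and act on receptors such as Ccr1, while Ccr2 is the receptor by which monocytes leave the marrow and Cxcr4 the receptor for the marrow's own chemokine Cxcl12, which retains cells there. Cxcl9, Cxcl10 and Cxcl11 are induced by interferon gamma and share the receptor Cxcr3.

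The 4 promoters below are shown because their genes lie close together in pairs and carry the results that follow: Ccl9 and Ccl3 in the CC cluster of chromosome 11, and Cxcl9 and Cxcl10 on chromosome 5. Each line gives the 250 bases before the RefSeq start of the gene in GRCm38.p6, on the gene's strand. Capitals mark matches, on either strand, to 4 sets of letters. They are TTCNNNGAA (a gamma-activated site), GAAA followed after any 2 bases by a second GAAA (an interferon-stimulated response element), GGG followed after any 2 bases by TTTCC (a kappa B site) and TATAAA (the usual TATA box).
Ccl9, chr11:83578637-83578886, minus strand: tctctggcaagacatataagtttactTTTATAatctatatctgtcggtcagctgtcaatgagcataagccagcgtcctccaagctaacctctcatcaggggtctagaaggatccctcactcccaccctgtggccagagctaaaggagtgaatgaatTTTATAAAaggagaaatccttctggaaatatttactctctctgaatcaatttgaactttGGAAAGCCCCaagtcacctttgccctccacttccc
Ccl3, chr11:83649379-83649628, minus strand: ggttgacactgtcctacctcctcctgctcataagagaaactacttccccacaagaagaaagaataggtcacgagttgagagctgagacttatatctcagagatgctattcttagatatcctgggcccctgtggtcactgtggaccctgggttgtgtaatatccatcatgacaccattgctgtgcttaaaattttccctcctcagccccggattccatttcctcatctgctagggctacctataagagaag
Cxcl9, chr5:92328080-92328329, minus strand: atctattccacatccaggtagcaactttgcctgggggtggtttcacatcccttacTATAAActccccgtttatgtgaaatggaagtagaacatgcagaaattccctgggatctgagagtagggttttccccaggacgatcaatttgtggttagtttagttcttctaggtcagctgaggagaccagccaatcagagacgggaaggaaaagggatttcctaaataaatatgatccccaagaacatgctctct
Cxcl10, chr5:92348890-92349139, minus strand: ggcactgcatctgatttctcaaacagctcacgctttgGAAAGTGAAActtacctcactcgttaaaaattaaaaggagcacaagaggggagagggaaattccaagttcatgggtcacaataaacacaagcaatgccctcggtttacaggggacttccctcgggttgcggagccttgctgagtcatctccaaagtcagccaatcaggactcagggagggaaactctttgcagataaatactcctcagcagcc
The Ccl9 window held a match to the kappa B letters from 35 to 26 bases before the start and 3 to TATAAA, of which 2 overlap each other. The Cxcl10 window held the response element letters from 213 to 204 bases before the start. The Cxcl9 window had TATAAA from 195 to 190 bases before the start, and none of the other 3 sets of letters is in it. None of the 4 sets is in the Ccl3 window. Of 32851 RefSeq promoter windows searched over the same length, 7.02% held the gamma-activated letters, 2.98% the response element, 1.41% the kappa B letters and 12.4% TATAAA. Windows were at hand for 42 member genes, some with several starts. The kappa B letters were in those of 6 genes (Ccl9, Ccl20, Ccr3, Cxcl1, Cxcl2 and Cxcl3), the gamma-activated letters in those of 4 (Ccl17, Ccr1l1, Ccr6 and Cxcl14), and the response element in those of Cxcl10 and Cxcl14. TATAAA was in those of 14, Ccl8, Ccl9, Cxcl9 and Cxcr4 among them. A match describes letters only, and so does the lack of one, since other spellings of these sites were not searched.

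The arrays and the cells were first checked. Log2 intensities of 13916 genes correlated at r = 0.986 between the Ezh2 KO arrays and at 0.985 between the WT arrays, and at 0.977 to 0.979 between groups, across genes, which are not independent replicates. All 10 markers of myeloid progenitors and MLL-AF9 leukemia on the list used, among them Mpo, Elane, Kit, Hoxa9 and Meis1, were above the filter intensity on every array. The single probe set of Ezh2 had 4989 and 4991 units in Ezh2 KO cells, against 5216 and 5315 units in WT cells (log2 change -0.08, limma adjusted p = 0.484). Its place relative to the deleted part is not known here, so it checks nothing about the labels.

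Which chemokine and receptor transcripts differ between the cells labelled Ezh2 KO and the WT cells was asked with limma over all genes, each gene taken by its brightest probe set. Ccl9, its receptor Ccr1 and the monocyte receptor Ccr2 were lower in Ezh2 KO cells, while Ccl3, the fractalkine receptor Cx3cr1 and Cxcr4 were higher. The interferon-inducible Cxcl9 was also lower, but it entered the test only through its WT level. Of the 55 genes 39 exceeded the filter on dim signals (an average of 19.96 units) and were tested. At an adjusted p under 0.05, 3 rose and 4, Cxcl9 among them, fell, 7 genes in all or 17.9% of those tested. Over all 13916 genes tested 11.6% passed, 5.55% upward and 6.01% downward. The median log2 change was 0.12 over the tested members and 0.01 over all genes. With median centring it was 0.02 over the members and -0.090 over all genes. Without WT replicate 2 these medians were -0.01 and -0.026. Over the tested member probe sets the median was -0.08, against 0.02 over all probe sets. The arrays of the 2 groups did not overlap for 23 of the 39 members, against 52.5% of all genes. Intensities are linear units of the deposited arrays. Log2 changes and folds were taken after adding 16 to each intensity, so that those of dim genes come out too small. In bulk samples fewer cells of a type and less RNA per cell cannot be told apart.

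**Figure D1:**
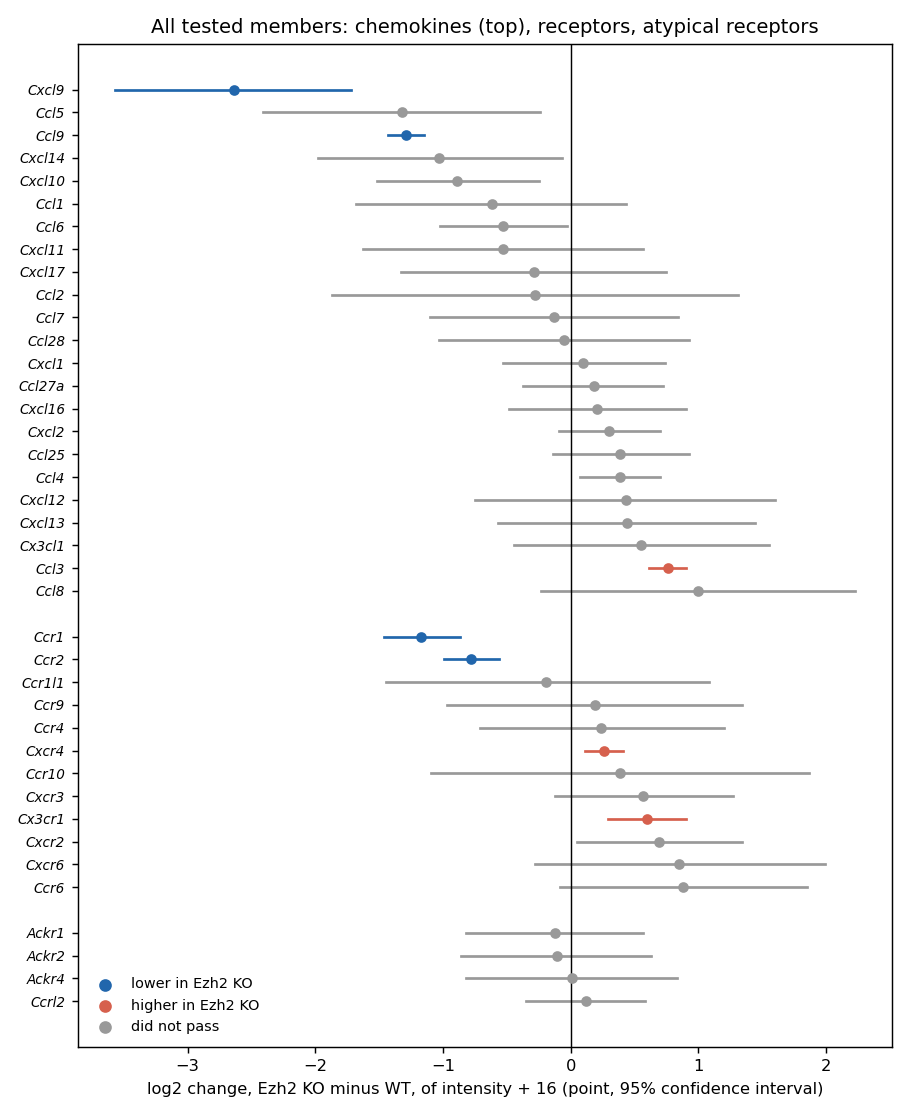
Log2 change of each of the 39 tested genes, Ezh2 KO minus WT, with its 95% confidence interval (2 arrays in each group), for chemokines at the top, then receptors and atypical receptors. The 4 genes in blue fell, the 3 in red rose, and most intervals of the genes in grey span 0.

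Among the CC chemokines, Ccl9 (probe set 1417936_at), a chemokine of mouse myeloid cells that acts at Ccr1, had 2299 and 2220 units in Ezh2 KO cells, against 5639 and 5478 units in WT cells. Both Ezh2 KO arrays lay below both WT arrays, and the gene fell 2.45-fold (log2 change -1.29, SE 0.06, limma adjusted p = 2.97e-06). Its second probe set, 1448898_at, had 1385 and 1285 units in Ezh2 KO cells, against 3927 and 3669 units in WT cells (log2 change -1.50, SE 0.08, limma adjusted p = 9.50e-06 over the probe sets). Ccl9 was thus lower by both of its probe sets.

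Ccl3 (1419561_at), the inflammatory protein MIP-1 alpha and also a ligand of Ccr1, ran the other way. It had 3886 and 4056 units in Ezh2 KO cells, against 2293 and 2397 units in WT cells, without overlap. The rise was 1.69-fold (log2 change 0.76, SE 0.07, limma adjusted p = 9.99e-05). Its neighbour Ccl4, MIP-1 beta, had 356 and 370 units in Ezh2 KO cells, against 292 and 258 units in WT cells, and did not pass (log2 change 0.39, SE 0.14, limma adjusted p = 0.115).

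Ccl6, another myeloid CC chemokine, had 105 and 97.0 units in Ezh2 KO cells, against 163 and 142 units in WT cells (log2 change -0.53, SE 0.22, limma adjusted p = 0.173). Ccl5, the T cell and macrophage chemokine RANTES, had 6.21 and 9.50 units in Ezh2 KO cells, against 56.6 and 32.9 units in WT cells (log2 change -1.32, SE 0.48, limma adjusted p = 0.116). The groups did not overlap for either gene, and neither passed. Ccl5 was below the filter intensity on both Ezh2 KO arrays, so that it was tested only through its WT level. The same holds for Ccl1, at 11.3 and 16.5 units in Ezh2 KO cells and 32.1 and 27.9 units in WT cells, and for Cxcl9 below.

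Of 18 CC chemokine genes 12 were tested, and Ccl9 and Ccl3 were the 2 that passed (16.7%, against 11.6% of all genes). Ccl8, a monocyte attractant, had 53.3 and 72.9 units in Ezh2 KO cells, against 55.6 and 5.52 units in WT cells, and the groups overlapped (log2 change 1.00, SE 0.55, limma adjusted p = 0.304). Its change was 0.13 without WT replicate 2 and 1.87 without WT replicate 1. The monocyte attractants Ccl2 and Ccl7, Ccl25 of the thymus and gut, and the epithelial Ccl27a and Ccl28 lay between -0.28 and 0.39 on the log2 scale, with adjusted p-values of 0.359 or more. Ccl11, Ccl12, Ccl17, Ccl20, Ccl22 and Ccl24 were not tested.

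**Figure D2:**
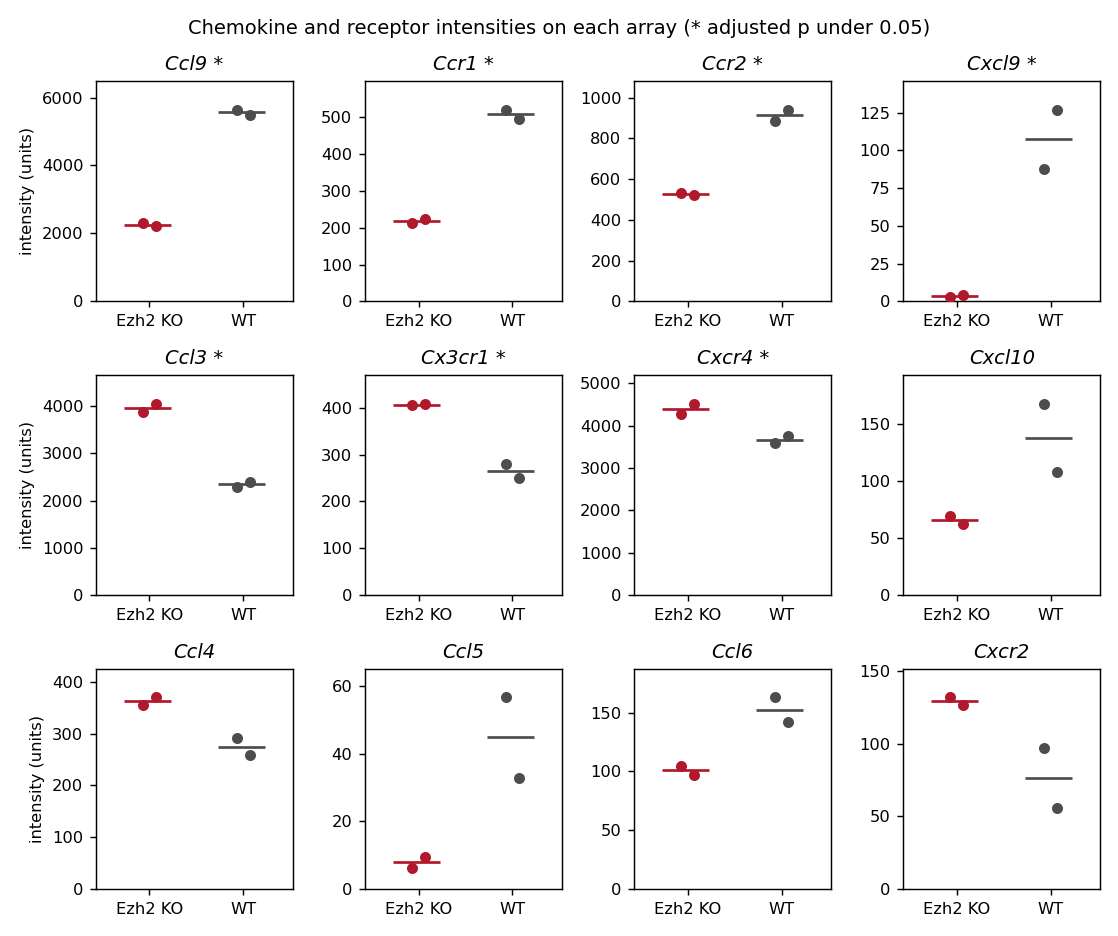
Intensity on each array for 12 genes, with Ezh2 KO on the left and WT on the right of each panel. Points are arrays, lines are means of 2 arrays, axes start at 0, and a star marks the 7 genes that passed, of which Ccl9, Ccr1, Ccr2 and Cxcl9 lie lower and Ccl3, Cx3cr1 and Cxcr4 higher in Ezh2 KO cells.

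Gene order, taken from RefSeq for GRCm38.p6, sets the opposite changes side by side. Ccl5, Ccl9, Ccl6, Ccl3 and Ccl4 follow each other on chromosome 11 with 0 other protein-coding genes between neighbours. Their log2 changes in that order were -1.32, -1.29, -0.53, 0.76 and 0.39. Ccl9 and Ccl3, the 2 of them that passed, are separated by Ccl6 alone. On chromosome 9 Ccr1, Ccr1l1, Ccr3 and Ccr2 are consecutive, with log2 changes of -1.17 for Ccr1, -0.19 for Ccr1l1 and -0.78 for Ccr2, while Ccr3 was too dim to be tested. On chromosome 5, 1 other protein-coding gene lies between the starts of Cxcl9 and Cxcl10. Cxcl11, also on chromosome 5, is not placed here because only protein-coding genes were ordered.

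**Figure D3:**
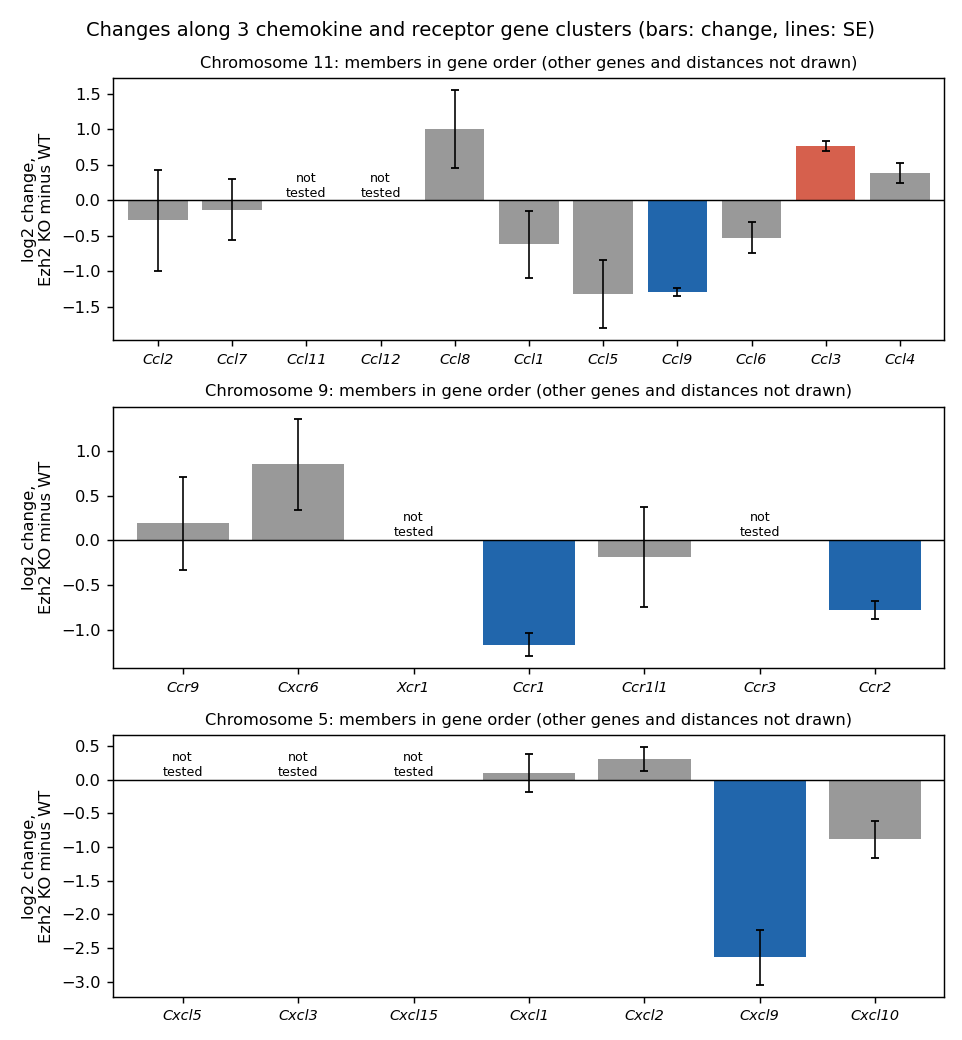
Log2 change, Ezh2 KO minus WT, of protein-coding members in clusters along 3 chromosomes, in gene order and without Cxcl11 (bars, with SE as lines, 2 arrays in each group; blue and red passed, grey did not). Ccl9 at -1.29 and Ccl3 at 0.76 stand close together on chromosome 11, Ccr1 at -1.17 and Ccr2 at -0.78 on chromosome 9, and Cxcl9 at -2.64 and Cxcl10 at -0.89 on chromosome 5.

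Among the CXC chemokines 10 of 13 were tested and Cxcl9 alone passed, a share below the 11.6% of all genes. Cxcl9 (1418652_at), the monokine induced by interferon gamma, had 3.00 and 4.14 units in Ezh2 KO cells, against 88.0 and 127 units in WT cells. Both Ezh2 KO arrays were below the filter intensity of 19.96 units, and with them set to that intensity it was at least 3.40-fold lower in Ezh2 KO cells. The fitted log2 change of -2.64 (SE 0.41, limma adjusted p = 0.00319) rests on those dim values. It became -4.56 when 1 was added in place of 16, and -1.34 when 64 was added. Without WT replicate 2, and with the filter at the 50th percentile, it was too dim to be tested. Its second probe set had 21.7 and 3.71 units in Ezh2 KO cells, against 38.5 and 29.1 units in WT cells, and did not pass (log2 change -0.86, SE 0.50, limma adjusted p = 0.373 over the probe sets).

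Cxcl10 had 69.5 and 62.2 units in Ezh2 KO cells, against 168 and 108 units in WT cells, without overlap. It did not pass (log2 change -0.89, SE 0.28, limma adjusted p = 0.0751). It passed at -0.98 with quantile normalization (limma adjusted p = 0.0456) and at -0.98 with median centring (0.0296), within a range of 0.0272 to 0.349 over 14 alternatives. Cxcl11 had 22.4 and 9.15 units in Ezh2 KO cells, against 24.5 and 33.5 units in WT cells (log2 change -0.53, SE 0.49, limma adjusted p = 0.579), with -0.22 without Ezh2 KO replicate 2 and -0.83 without Ezh2 KO replicate 1. RefSeq lists Cxcl11 as a transcribed pseudogene in this C57BL/6J assembly. Their receptor Cxcr3, on activated T cells, had 76.3 and 79.5 units in Ezh2 KO cells, against 50.7 and 43.7 units in WT cells (log2 change 0.57, SE 0.31, limma adjusted p = 0.295).

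Of the other CXC chemokines, Cxcl14 of epithelia had 27.2 and 11.4 units in Ezh2 KO cells, against 53.1 and 55.1 units in WT cells (log2 change -1.03, SE 0.42, limma adjusted p = 0.166). The neutrophil attractant Cxcl2 had 207 and 239 units in Ezh2 KO cells, against 178 and 176 units in WT cells (log2 change 0.30, SE 0.18, limma adjusted p = 0.333). Neither passed. Cxcl12, the ligand of Cxcr4, had 19.9 and 48.4 units in Ezh2 KO cells, against 33.6 and 9.85 units in WT cells, near the filter intensity and with overlap. Cxcl1, Cxcl13, Cxcl16, Cxcl17 and the fractalkine gene Cx3cl1 lay between -0.29 and 0.55 on the log2 scale and did not pass, with adjusted p-values of 0.507 or more, and Cxcl3, Cxcl5, Cxcl15 and the XC chemokine gene Xcl1 were not tested.

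Among the receptors, Ccr1 (1419609_at) had 213 and 223 units in Ezh2 KO cells, against 521 and 497 units in WT cells. The fall was 2.24-fold, without overlap (log2 change -1.17, SE 0.13, limma adjusted p = 5.26e-04). Its dimmer probe set had 38.9 and 35.0 units in Ezh2 KO cells, against 51.2 and 78.3 units in WT cells, and did not pass (log2 change -0.59, SE 0.35, limma adjusted p = 0.376 over the probe sets). Ccr1l1 is a close relative of Ccr1, and which probes read both was not analysed here.

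Ccr2 (1421186_at) had 531 and 522 units in Ezh2 KO cells, against 888 and 941 units in WT cells. It fell 1.71-fold, without overlap (log2 change -0.78, SE 0.10, limma adjusted p = 8.45e-04). Its 3 dimmer probe sets had log2 changes of -0.56, -0.40 and -0.34, none of them past the threshold over the probe sets, and the mean over all 4 gave -0.52 and lost the call (limma adjusted p = 0.0980, within a range of 1.10e-07 to 0.0980 over 14 alternatives).

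Cx3cr1 (1450020_at), carried by monocytes and macrophages, had 405 and 409 units in Ezh2 KO cells, against 280 and 249 units in WT cells. It rose 1.51-fold, without overlap (log2 change 0.60, SE 0.14, limma adjusted p = 0.0215). The call was lost with median centring (0.50), with averaged probe sets (0.74), with a single prior variance and without WT replicate 2 (0.52, limma adjusted p = 0.0854). Over its 14 alternatives the adjusted p ran from 0.00320 to 0.129.

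Cxcr4 (1448710_at) had 4274 and 4524 units in Ezh2 KO cells, against 3584 and 3756 units in WT cells. The rise was 1.20-fold, without overlap (log2 change 0.26, SE 0.07, limma adjusted p = 0.0308). It was lost in 6 of 14 alternatives: without WT replicate 1 (0.23), WT replicate 2 (0.29) or Ezh2 KO replicate 2 (0.22), without a filter, with a single prior variance, and with median centring (0.16, limma adjusted p = 0.399, the highest of a range that began at 0.00213). With that centring 1 member was called higher and 5 lower (15.4%, against 10.2% of all genes), in place of 3 higher and 4 lower. The median log2 change over all genes was then -0.090.

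Of 17 receptor genes 12 were tested, and 4 passed (33.3%, against 11.6% of all genes), Cx3cr1 and Cxcr4 upward and Ccr1 and Ccr2 downward. Cxcr2, the neutrophil receptor for Cxcl1 and Cxcl2, had 132 and 127 units in Ezh2 KO cells, against 96.9 and 55.7 units in WT cells, without overlap, and did not pass (log2 change 0.69, SE 0.29, limma adjusted p = 0.165). Its change was 0.37 without WT replicate 2 and 1.02 without WT replicate 1. The lymphocyte receptors Ccr4, Ccr6, Ccr9 and Cxcr6, with Ccr10 and Ccr1l1, had log2 changes from -0.19 to 0.88 and adjusted p-values of 0.245 or more. Ccr3 of eosinophils, Ccr7, Ccr8 and Cxcr5 of lymphocytes and Xcr1 of dendritic cells were not tested.

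The atypical receptors, which bind chemokines without the usual G protein signal, held no gene that passed. The tested 4, Ackr1, Ackr2, Ackr4 and Ccrl2, had log2 changes between -0.12 and 0.12, and their groups of arrays overlapped in every case. The 95% confidence interval was widest for Ackr4, from -0.82 to 0.83, and narrowest for Ccrl2, from -0.35 to 0.58. Ackr3, a scavenger of Cxcl12, was not tested. The 16 untested genes were at most at 44.3 units on any array.

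Probe sets were then read singly. Of 87 member probe sets 52 exceeded the filter, and 3 rose and 5 fell in the fit over 25576 probe sets, 15.4% against 7.92% of all probe sets (4.03% upward and 3.89% downward). The groups of arrays did not overlap for 30 of the 52, against 50.5% of all probe sets. The extra call was the second probe set of Ccl9. More than 1 tested probe set was at hand for 11 genes, and in 7 of these all had the same sign. In Ccl25, Ccl28, Cx3cl1 and Cxcl1 they differed in sign, and none of those passed. Some probe sets may read several transcripts: 4 carry the suffix _s_at and 5 the suffix _x_at, which Affymetrix gives to designs that match more than one transcript or cross-hybridise.

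**Figure D4:**
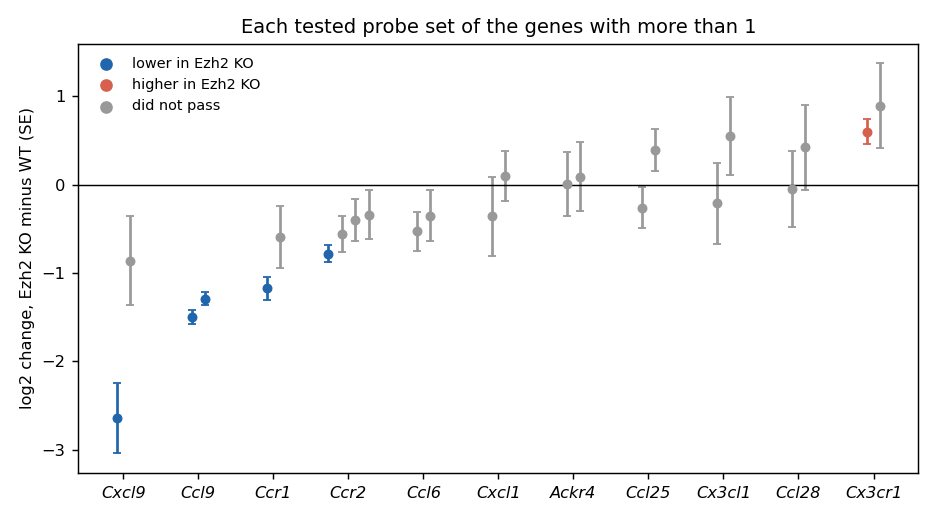
Log2 change, Ezh2 KO minus WT, with SE (2 arrays in each group), of every tested probe set of the 11 genes with more than 1. Both probe sets of Ccl9 are at or below -1.29, all 4 of Ccr2 are below 0, and those of Ccl25 lie on both sides of 0.

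Markers of other cells were read beside these results. Of 7 markers of T and NK cells 1 was above the filter intensity on all arrays. That was Cd8a, at 136 and 58.3 units in Ezh2 KO cells, against 125 and 72.4 units in WT cells. The summed intensity of the 7 was 178 to 284 units in Ezh2 KO cells and 158 to 208 units in WT cells. Of 9 macrophage markers 2 were above it on all arrays and 1 fell, Vcam1, at 1440 and 1578 units in Ezh2 KO cells, against 4817 and 5769 units in WT cells. The macrophage sum was 2879 to 3260 units in Ezh2 KO cells and 6478 to 7483 units in WT cells, most of which is Vcam1 and Adgre1. Of the complement genes of resident macrophages, C1qa and C1qc were at most at 3.16 units on every array, while C1qb had 45.3 and 28.2 units in Ezh2 KO cells, against 37.3 and 7.88 units in WT cells. Of 4 monocyte markers 2 rose, Csf1r and Cd14, and none fell, with a sum of 10424 to 10780 units in Ezh2 KO cells and 7904 to 8205 units in WT cells. The monocyte receptors did not share a direction, since Cx3cr1 rose and Ccr2 fell. Of 6 dendritic cell markers, among them the member Xcr1, H2-Ab1 fell, and the sum was 436 to 459 units in Ezh2 KO cells and 554 to 567 units in WT cells. Of 4 mast cell and basophil markers Cpa3, a mast cell protease, rose, at 1318 and 1241 units in Ezh2 KO cells, against 50.6 and 64.8 units in WT cells (log2 change 4.14, limma adjusted p = 7.23e-07). Their sum was 2005 to 2213 units in Ezh2 KO cells and 965 to 1046 units in WT cells. None of 5 megakaryocyte markers passed, with sums of 524 to 610 units in Ezh2 KO cells and 380 to 403 units in WT cells. Of the 10 progenitor markers the integrin gene Itgam rose (log2 change 0.74) and Ctsg fell (-0.25). The part of these cells in the chemokine results was not tested.

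Genes that carry the signal of chemokine receptors into the cell were read from a list. Of 55 tested genes 9 rose and 1 fell, 18.2% against 11.6% of all genes, with a median log2 change of 0.13 against 0.01. With median centring 3 were higher and 1 lower, 7.27% against 10.2% of all genes, so that the share was then below that of all genes. The medians were then 0.03 for the list and -0.090 for all genes. Grk3, a kinase that desensitises activated receptors, had 990 and 948 units in Ezh2 KO cells, against 599 and 599 units in WT cells (log2 change 0.68, SE 0.09, limma adjusted p = 0.00141). Tiam1, an exchange factor for Rac, had 2771 and 3208 units in Ezh2 KO cells, against 2069 and 1884 units in WT cells (log2 change 0.59, SE 0.09, limma adjusted p = 0.00223). Averaging its probe sets left 0.04 (adjusted p = 0.905, within a range of 2.79e-10 to 0.905).

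The phospholipase Plcb2 rose 1.41-fold, the kinase Ptk2b 1.36-fold and Rgs18, which shortens G protein signals, 1.32-fold. Gng10, a G protein gamma subunit, fell 1.34-fold and was the 1 lower gene. The call of Rgs18 was lost with median centring, and that of Ptk2b in 8 of 14 alternatives, each WT array and Ezh2 KO replicate 1 left out among them (log2 changes 0.41, 0.48 and 0.36). The inhibitory G protein alpha genes Gnai2 and Gnai3, through which chemokine receptors signal, did not pass, at 0.08 and 0.13 on the log2 scale.

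A further list held chemoattractants outside the naming rule of the members, with their receptors and modifiers. Of 14 tested genes on it 5 rose, 1 fell and 8 did not pass (42.9% against 11.6% of all genes), with a median log2 change of 0.20. Like the members and the other lists, this list was chosen with earlier results of these data known. Its share is therefore no independent evidence. Of its CXC chemokine genes, Pf4 did not pass (log2 change -0.17, limma adjusted p = 0.883) and Ppbp was not tested. Without Cxadr, which is no chemoattractant and entered the list in error, 4 of 13 rose and 1 fell (38.5%), with a median of 0.13. The leukotriene B4 receptor Ltb4r1 had 5658 and 5426 units in Ezh2 KO cells, against 3363 and 3436 units in WT cells (log2 change 0.70, SE 0.06, limma adjusted p = 1.10e-04). The formyl peptide receptor Fpr2 rose 1.69-fold and the sphingosine 1-phosphate receptor S1pr4 1.40-fold, whose call was lost with median centring and without WT replicate 1, WT replicate 2 or Ezh2 KO replicate 1 (0.49, 0.49 and 0.47 on the log2 scale). Dpp4, a peptidase that trims chemokines, had 234 and 270 units in Ezh2 KO cells, against 62.4 and 61.0 units in WT cells (log2 change 1.78, SE 0.22, limma adjusted p = 8.45e-04). Mif, a cytokine that can bind Cxcr2 and Cxcr4, had 4290 and 4078 units in Ezh2 KO cells, against 6896 and 7191 units in WT cells, and fell 1.68-fold. The calls of Mif and Cxadr were lost with averaged probe sets. The other rise, of 3.44-fold, was that of Cxadr, an adhesion protein and virus receptor.

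Genes of the interferon gamma response, the pathway known to induce Cxcl9, were read from a separate list. Of 20 tested genes 8 fell, 1 rose and 11 did not pass (45.0% against 11.6% of all genes), with a median log2 change of -0.42. Beside Gbp2 and Nlrc5, which fell 9.60-fold and 7.25-fold, the factor Irf8 had 1370 and 1386 units in Ezh2 KO cells, against 2014 and 2085 units in WT cells (log2 change -0.57, SE 0.07, limma adjusted p = 9.70e-04), and the GTPase genes Igtp and Irgm1 fell 1.81-fold and 1.51-fold. The receptor genes Ifngr1 and Ifngr2 did not pass, at -0.01 and 0.10 on the log2 scale. Falls of interferon genes in these arrays were known when the list was drawn up, so its count is no independent evidence of a direction.

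**Figure D5:**
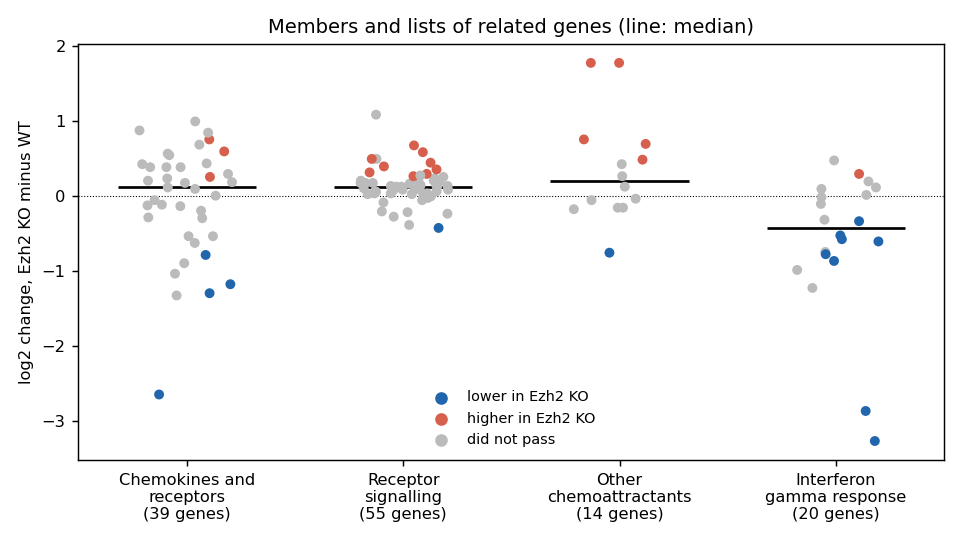
Log2 change, Ezh2 KO minus WT, of each tested gene (points; blue fell, red rose, grey did not pass) among the members and in 3 lists of related genes, with medians as lines. The medians were 0.12 for the members, 0.13 for receptor signalling, 0.20 for other chemoattractants and -0.42 for the interferon gamma response.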

How the data were processed

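The authors deposited linear probe set intensities. The submitters' processing notes name Affymetrix Expression Console, and no source used here gives its version or how probes were summarised. In each array the mean after trimming 2% at either end was 500, which removes differences in total mRNA per cell. Of 45101 probe sets 64 were controls, 34945 others had 1 gene symbol (annotation table of the platform), 932 had several and 9160 were unnamed. Symbols were updated by gene identifier through RefSeq, and 0 changed. Groups came from sample titles.

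Each of 18193 genes was represented by its single-symbol probe set of highest mean log2 value. Those above the 30th percentile of non-control probe sets (19.96 units) were tested as log2(intensity + 16) with lmFit and eBayes (trend) of limma 3.58.1 in R 4.3.3, adjusted by Benjamini-Hochberg over all genes, with a threshold of 0.05 (2 residual degrees of freedom, 9.56 with the prior). A second fit covered all 25576 single-symbol probe sets above the filter. The script was checked on simulated arrays. Detection calls were not used here.

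The members and gene lists were chosen with earlier results of these data known. Genes named are the members that passed or exceeded 1000 units, the 4 others with the largest change, and up to 6 changed genes of each list. Further members were named after their values were seen, and so were Pf4, Ppbp, Gnai2, Gnai3, Ifngr1 and Ifngr2. TATAAA was added to the motifs after the data were seen. Promoter sequences are from RefSeq. Alternatives were quantile normalization, median centring, other filters, pseudocounts of 1 and 64, averaged probe sets, a single or robust prior variance, the replicate number as a block, and leaving out each array. Figures were drawn with matplotlib 3.10.9 in Python 3.11.15.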

Additional observations from a re-analysis of the deposited data

How the results depend on the processing

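The count of member genes that passed was 7 (17.9%, against 11.6% of all genes), and 4 to 7 when an array was left out (11.1% to 17.5%, against 5.97% to 11.8% of all genes), the lowest without WT replicate 2, where Cx3cr1 and Cxcr4 lost their calls and Cxcl9 was too dim to be tested. Over probe sets the count was 8 (15.4%, against 7.92% of all probe sets). Without 1 array the median log2 change of the member probe sets ran from -0.13 (without WT replicate 2) to 0.08 (without WT replicate 1). With a single prior variance limma called 0 member genes (14 at an unadjusted p under 0.05), 0 member probe sets (16 unadjusted) and 0 receptor signalling genes (12 unadjusted), as it did over all genes. Median centring gave 1 higher and 5 lower member genes (15.4%, against 10.2% of all genes). Over member probe sets it gave 1 higher and 6 lower (13.5%, against 6.06% of all probe sets), in place of 3 and 5. Receptor signalling genes that passed numbered 10 (18.2%, against 11.6% of all genes). They numbered 4 with median centring (7.27%, against 10.2%) and 21 with the replicate block (38.2%, against 19.5%). Without 1 array the list's median log2 change ran from 0.10 (without Ezh2 KO replicate 1) to 0.14 (without WT replicate 2). Replicate numbers could not be shown to pair samples: the deviations of same-numbered arrays correlated at 0.04 across genes, and the replicate block called 8 member genes, Cxcl10 the added one, 20.5% against 19.5% of all genes under that block. Apart from the single prior variance, Ccl9, Ccl3 and Ccr1 kept their calls in each alternative. Cxcl9 also did in those that tested it, but it was tested only through its WT level. Its log2 change ran from -4.56 to -1.34. No gene followed through the alternatives turned its direction in those that tested it. Detection calls were not used, so falls below 19.96 units are bounded by background.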
